A study of Mus musculus with 24 samples.

Results

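The genes described here are 5 DNA topoisomerase genes (Top1, Top2b, Top3a, Top3b and Top1mt), both tyrosyl-DNA phosphodiesterase genes (Tdp1 and Tdp2) and Fancd2, 8 of the 23240 genes in the table. They were taken by symbol, and the set was chosen on the levels of Top1 and Fancd2, which had differed between stressed and nonstressed mice in these same libraries. All 8 passed the filter on low values (at least 10 normalized read counts in at least 4 libraries), and each was above 10 in all 24 libraries.

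The series measured poly(A) RNA of the hippocampus in wild-type male C57BL/6 mice aged 4 to 8 months. Nonstressed mice ate the control diet and had no treatment (4 libraries). The stressed mice were put through 5 weeks of chronic unpredictable stress (CUS), a course of varied mild stressors that began after 3 weeks on their diet, and then had sham treatment or electroconvulsive therapy (ECT), given 3 times a week for 2.5 weeks. They ate either the control diet (5 sham and 6 ECT libraries) or the PLX diet (5 sham and 4 ECT libraries), which held a compound spelled PLX5562 in the labels, an inhibitor of CSF1R, a receptor kinase that microglia need to survive. Sham-treated mice differed from nonstressed mice in stress and in having had sham sessions, and these cannot be told apart. Whether every library stands for its own mouse is not in the labels, so a p-value covers the spread of these libraries, which may be technical.

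Topoisomerases cut DNA, let strands pass or rotate, and reseal the cut, which removes the twist that transcription and replication build up. During the cut a tyrosine of the enzyme is bound to the DNA end. When resealing fails, the enzyme stays on the DNA, and TDP1 and TDP2 free the end by splitting the bond between tyrosine and DNA. In neurons, TOP1 and TOP2B are known for their part in the transcription of long genes, and TOP2B for cuts at early response genes. FANCD2 belongs to the Fanconi anaemia pathway, which repairs DNA crosslinks and guards stalled replication forks.

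The start regions of Top1 and Top2b are shown because these had the highest levels per length among the nuclear topoisomerase genes. Each holds 250 bases before and 50 after the annotated start, 5′ to 3′ on the plus strand, from RefSeq on GRCm38.p6. The table of start regions held 4 of the 8 genes: Top1, Top2b, Top3b and Tdp1. Capitals mark 4 motifs. The GC box is GGGCGG. The E-box searched for is CACGTG. The CCAAT box is spelled by its name, and the cyclic AMP half-site is TGACG. Each was searched on both strands, and no marked match overlaps another.
Top1, chr2:160645647-160645946: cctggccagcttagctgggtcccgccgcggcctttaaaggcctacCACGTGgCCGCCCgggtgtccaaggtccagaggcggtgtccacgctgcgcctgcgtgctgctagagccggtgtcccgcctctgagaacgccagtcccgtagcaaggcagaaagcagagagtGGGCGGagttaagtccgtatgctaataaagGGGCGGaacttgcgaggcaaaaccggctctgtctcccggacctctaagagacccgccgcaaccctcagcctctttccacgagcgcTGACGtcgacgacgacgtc
Top2b, chr14:16364956-16365255: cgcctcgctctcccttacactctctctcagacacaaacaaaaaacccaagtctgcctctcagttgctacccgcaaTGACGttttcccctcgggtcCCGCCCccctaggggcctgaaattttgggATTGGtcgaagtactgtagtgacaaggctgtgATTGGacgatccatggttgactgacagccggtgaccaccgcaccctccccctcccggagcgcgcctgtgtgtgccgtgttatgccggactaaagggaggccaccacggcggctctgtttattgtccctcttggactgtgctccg

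The Top1 window was 64.0% G and C with 29 CpG pairs, and the Top2b window 58.3% with 18, against medians of 52.7% and 7 over 32851 such windows. Top1 held 3 GC boxes and Top2b held 1, a motif found in 35.7% of all windows. The E-box, found in 7.2% of windows, was in the Top1 window and not in that of Top2b, whereas 2 CCAAT boxes were in the Top2b window and none in that of Top1 (37.4% of windows). Each held 1 TGACG (20.8% of windows), and neither held the full cyclic AMP element TGACGTCA (1.8%). The glucocorticoid half-site AGAACA (19.0% of windows) was in neither window. These are matches of letters, not measured binding.

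Each library had 14.97 M to 20.12 M reads on genes. The hippocampal labels were borne out by excitatory neuron and dentate granule markers in every library, with summed levels of at least 102678 and 5099 normalized read counts. Microglial markers (10 genes) summed to 5762 to 7912 on the control diet and to 1030 to 2003 on the PLX diet. Markers of tissue beside the hippocampus varied within and between groups. The 9 choroid plexus genes summed to 1546 to 84326 and the 9 thalamus and habenula genes to 2413 to 12972. One PLX sham library, number 17, had 2.90% of reads from Rn45s (ribosomal RNA precursor), the highest share, and the lowest was 0.598%.

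Per kb of annotated exon, the level over all libraries was highest for Top1 (169 normalized read counts per kb), followed by Top1mt (116), Top2b (109), Tdp2 (84.3), Top3b (75.3), Tdp1 (40.2), Top3a (21.3) and Fancd2 (6.88). This order uses all annotated exons of each gene, 2.04 kb for Top1mt and 14.6 kb for Top2b, so it depends on which transcripts the annotation lists. Reads behind a single value ran from 1446 to 2114 for Top1 and from 29 to 69 for Fancd2. The SD that counting error alone gives on the log2 scale was 0.034 for Top1 and 0.20 for Fancd2, and the measured SD within groups was 0.061 and 0.22. These SDs are pooled over the groups, and for Fancd2 the coefficient of variation was 34.8% in nonstressed libraries and 8.18% to 12.0% in the other groups.

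**Figure D1:**
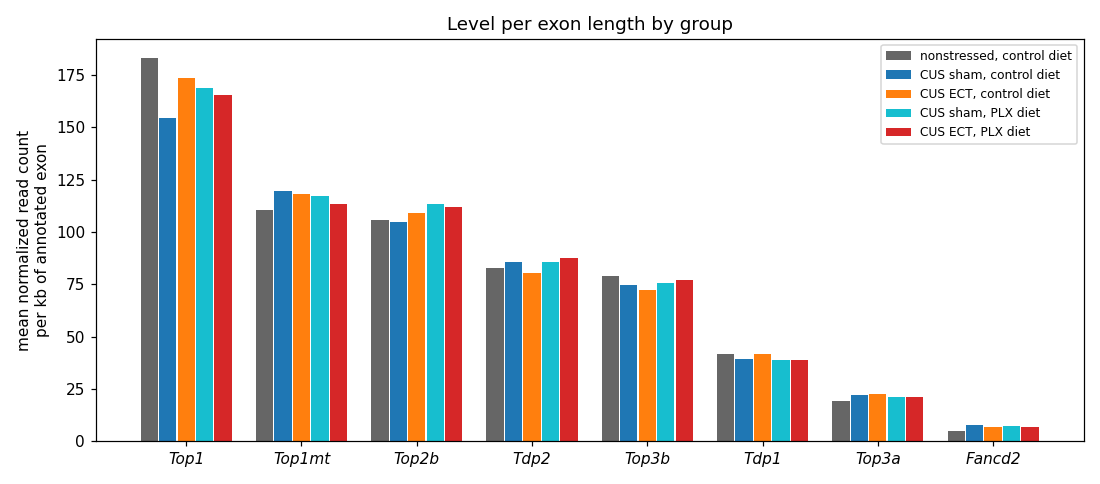
Mean normalized read count per kb of annotated exon (vertical axis, from 0) for each of the 8 genes, with a bar for each of the 5 groups. The order from Top1 (169 over all libraries) down to Fancd2 (6.88) spans a wider range than the differences between groups of any single gene.

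Top1 codes for the nuclear type IB topoisomerase, which cuts a single strand to relax DNA ahead of and behind RNA polymerase (GRCm38 chromosome 2, 160645888 to 160722764, plus strand). Its normalized read counts in the nonstressed libraries were 1842, 1913, 1916 and 1962. In the stressed sham libraries on the control diet they were 1522, 1540.0, 1571, 1684 and 1730.3. All 5 sham libraries lay below all 4 nonstressed ones.

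In stressed ECT mice on the control diet Top1 ran from 1721 to 1912, with a median of 1789 (n = 6). On the PLX diet it was at 1645, 1730, 1764, 1785 and 1883 in sham mice and at 1703, 1706, 1717 and 1765 in ECT mice. From high to low the group means were 1908 ± 49.5 (SD, n = 4) in nonstressed mice, 1810.0 ± 74.6 (n = 6) in ECT mice on the control diet, 1761 ± 86.4 (n = 5) in sham mice on the PLX diet, 1723 ± 28.6 (n = 4) in ECT mice on the PLX diet, and 1609 ± 92.4 (n = 5) in sham mice on the control diet. Each pair of neighbours in this order overlapped. The nonstressed libraries were apart from those of sham mice on the control diet and of ECT mice on the PLX diet (5.99% of all genes apart in the latter pair, 3.72% lower), and overlapped the other groups.

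Fancd2 codes for the protein that is joined to ubiquitin, together with FANCI, when a replication fork meets a crosslink (chromosome 6, 113531682 to 113597017, plus strand). It was at 28.3, 31.9, 36.8 and 58.5 normalized read counts in the nonstressed libraries. The stressed sham libraries on the control diet were at 51.3, 58.3, 60.3, 62.4 and 71.6. Of the nonstressed libraries, 3 lay below every stressed library of any group, while number 25, at 58.5, lay among them.

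On the control diet after ECT, Fancd2 ran from 46.4 to 60.9 (median 54.6, n = 6). On the PLX diet it was at 52.5, 58.1, 60.0, 62.9 and 67.0 in sham mice and at 50.8, 53.9, 59.4 and 60.5 in ECT mice. The means of the 4 stressed groups lay between 54.4 and 60.8, beside 38.9 ± 13.5 (n = 4) in nonstressed mice, and all 5 groups overlapped. The gene shares 257 exon bases with Fancd2os on the other strand, which had a mean of 8.95, so without a known strand setting for the counting their reads cannot be told apart there.

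**Figure D2:**
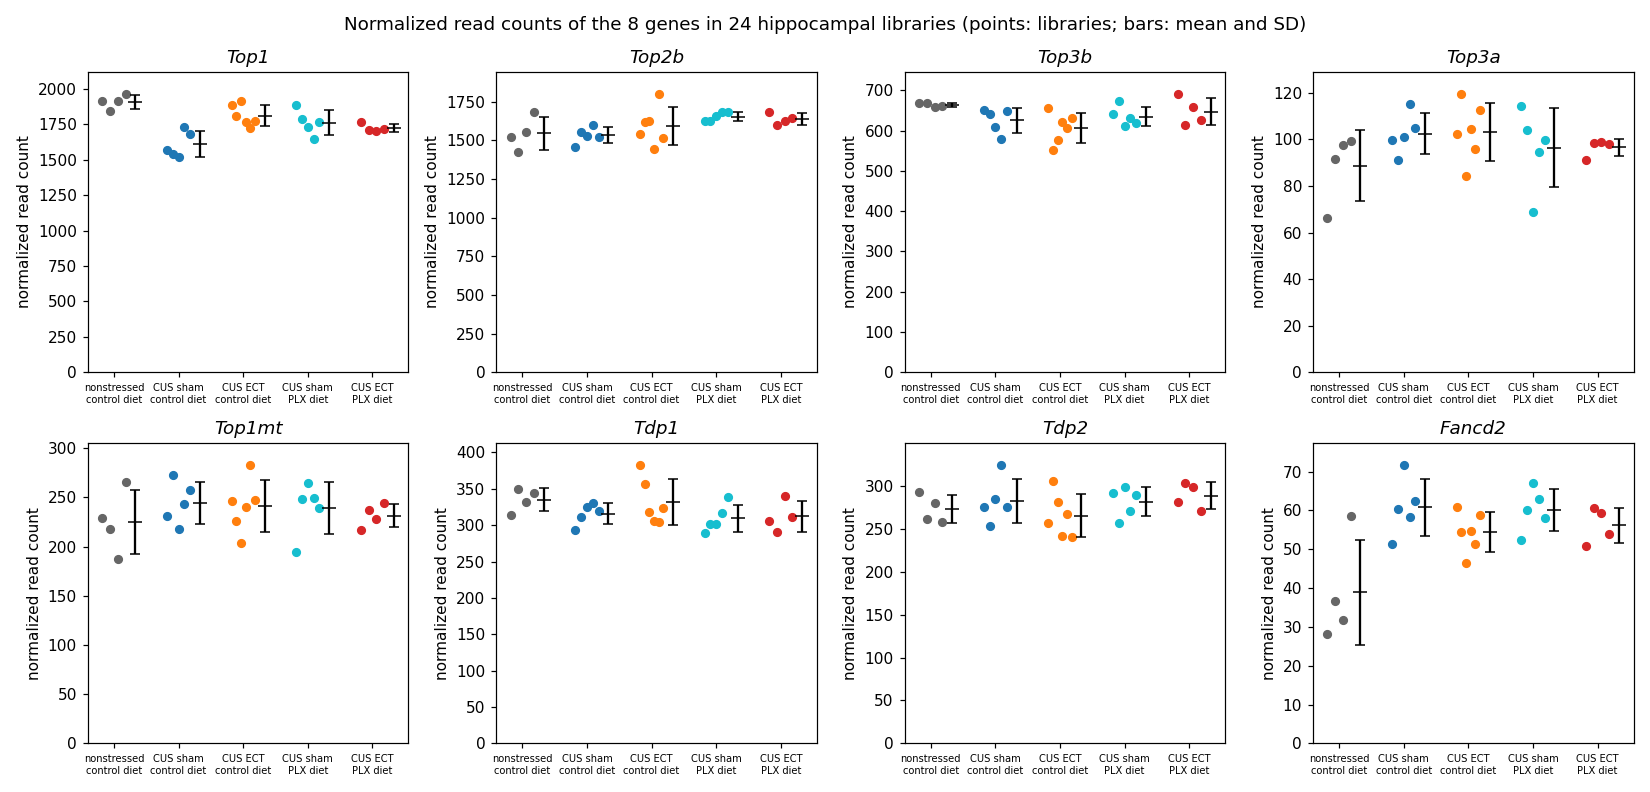
Normalized read counts (vertical axes, from 0) of the 8 genes in 24 libraries. Points are libraries of the 5 groups, and bars give the mean and SD. Top1 sits lowest in stressed sham mice on the control diet (1522 to 1730.3), and 3 nonstressed libraries sit lowest for Fancd2 (28.3 to 36.8).

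The contrast of stressed sham with nonstressed mice, both on the control diet, chose these genes, so its values are a description and no test of any member is given. On the log2(value + 1) scale Top1 differed by -0.25 (SE 0.044, 95% interval -0.34 to -0.16), a level in stressed mice 0.842 times that in nonstressed mice. Fancd2 differed by 0.68 (SE 0.15, 95% interval 0.36 to 0.996), a level 1.28 to 1.99 times that in nonstressed mice over this interval. The intervals do not allow for the choice of Top1 and Fancd2 on this contrast, which favours large differences. The other 6 genes lay between -0.09 (Top3b) and 0.22 (Top3a). Without single libraries the difference ran from -0.27 to -0.23 for Top1 and from 0.55 to 0.89 for Fancd2, with the latter reached when library 25 was left out. These fits reuse the libraries that chose the genes and are no support for them. Over all 15225 genes limma called 0% in this contrast, with 989 genes at an unadjusted p below 0.05.

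Groups did not overlap in this contrast for Top1 and Top3b, both lower in stressed mice, and 2.6% of all genes had groups apart in either direction (1.17% lower). Nothing is read from that share, since the contrast chose the genes. Choroid plexus markers summed to 14381 to 84326 (median 28879) in nonstressed libraries and to 1575 to 52195 (median 1874) in stressed sham libraries. Oligodendrocyte markers (8 genes) summed to 121408 to 194569 (median 156993) and to 113710 to 170383 (median 123091). Library 25, the one with high Fancd2, had the lowest nonstressed sum of both the choroid plexus and the oligodendrocyte markers. Thalamus and habenula markers summed to 2861 to 9209 (median 5761) and to 2752 to 10385 (median 3223). The part of these tissues and cells in the difference was not tested. As a description, Top1 differed by -0.24 and Fancd2 by 0.57 with the choroid plexus and the thalamus and habenula means in the fit. Oligodendrocyte markers were not in that fit. In bulk tissue, a change in the number of cells of a type and a change in RNA per cell cannot be told apart.

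The other stressed groups set against the nonstressed libraries share those 4 libraries with the contrast that chose the genes, and their values are given side by side without a test. Top1 differed by -0.08 in ECT mice on the control diet, by -0.12 in sham mice on the PLX diet and by -0.15 in ECT mice on the PLX diet. Fancd2 differed by 0.52, 0.67 and 0.57 in the same order. Over all genes limma called 0%, 1.85% and 1.89% in these contrasts. Without library 25 Fancd2 differed by 0.78 in ECT mice on the PLX diet.

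Top1 and Fancd2 tended to move apart across libraries. Over the 24 libraries their log2 values had a Pearson r of -0.54 and a Spearman rho of -0.55. Over the 20 stressed libraries alone r was -0.47 and rho -0.44, and without the 2 libraries farthest from the median of Top1 r was -0.49. The points share their library, its size factor and its makeup of cells, and the pair was chosen after its values were seen. Top1 was lower and Fancd2 higher in the sham libraries on the control diet that chose them, which favours a negative r. The 20 stressed libraries still hold those sham libraries. Of the 28 pairs among the 8 genes Top1 and Fancd2 had the lowest r, and the highest was 0.502, between Top1mt and Fancd2.

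**Figure D3:**
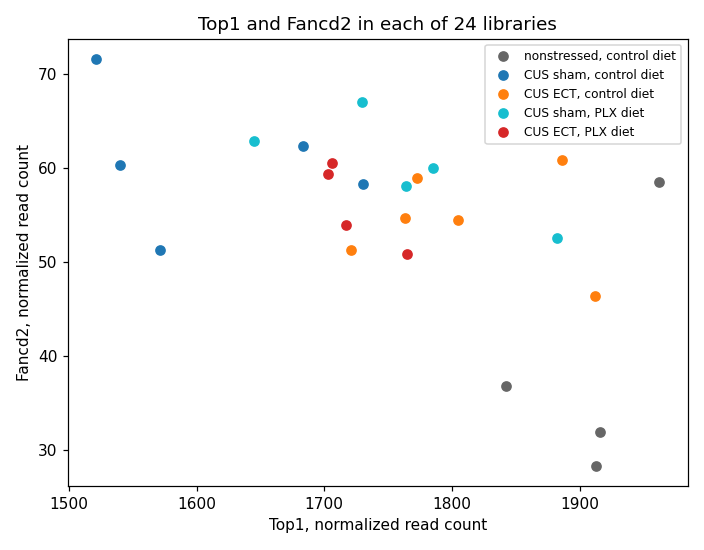
Top1 (horizontal axis) against Fancd2 (vertical axis) in normalized read counts, with a point for each of 24 libraries coloured by group. Both axes start above 0. Nonstressed libraries 22, 23 and 24 lie at the lower right, with Fancd2 from 28.3 to 36.8 and Top1 from 1842 to 1916.

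Across libraries Fancd2 had an r of -0.48 with the mean log2 level of choroid plexus markers, -0.51 with oligodendrocyte markers and 0.42 with inhibitory neuron markers, and Top1 had 0.40, 0.16 and -0.16. The genes whose log2 values were most like those of Top1 over the 24 libraries were Smarca5, a chromatin remodelling ATPase (r = 0.829), Ccar1 (0.781) and Upf2, a factor of nonsense-mediated decay (0.778). Those most like Fancd2 were Adcy3, the adenylyl cyclase of neuronal cilia (0.798), Crtac1 (0.792) and Magee1 (0.789). These are the top of 15225 genes ranked by r and are given as a description.

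Top2b codes for a type II enzyme, which passes a DNA helix through a cut in both strands (chromosome 14, 16365179 to 16435462, plus strand). It was at 1421, 1523, 1556 and 1682 in nonstressed libraries and at 1457, 1518, 1528, 1555 and 1598 in stressed sham libraries on the control diet, and these overlapped. On the PLX diet it was at 1622, 1623, 1657, 1682 and 1683 in sham mice, all above the 5 sham libraries on the control diet. After ECT it was at 1597, 1626, 1641 and 1685 on the PLX diet and ran from 1445 to 1798 (median 1578, n = 6) on the control diet, with overlap.

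Among sham mice the difference of Top2b between the diets was 0.11 on the log2 scale (SE 0.048, 95% interval 0.012 to 0.21), with adjusted p = 0.432 by limma, so it did not pass over all genes. It was the only member of the 8 with groups apart in this comparison, where 3.35% of all genes had them (0.841% higher on the PLX diet). Top1 differed by 0.13 (SE 0.042) between the same groups, and no p is given for Top1 or Fancd2 here because the sham libraries on the control diet entered their choice. Top2b had an r of -0.51 across the 24 libraries with the mean log2 level of the microglial markers, which set the diets apart. Its r was 0.42 with dentate granule markers, -0.37 with thalamus and habenula markers and -0.09 with choroid plexus markers. Choroid plexus markers also differed between these sham groups, with median sums of 1874 on the control diet and 34159.5 on the PLX diet. The part of these cells and tissues in the difference of Top2b was not tested. Exons of Rarb on the other strand, a gene with a mean of 90.3, cover 12.3% of the exon bases of Top2b. The genes most like Top2b were Dhx9, an RNA helicase (r = 0.895), Eif3c (0.856) and Eprs (0.851).

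Top3b codes for a type IA enzyme that acts on RNA as well as DNA and works with TDRD3 (chromosome 16, 16870736 to 16892990, plus strand). In nonstressed libraries it was at 658, 660.0, 668 and 669, with a coefficient of variation of 0.825%, the smallest of any group of the 8 genes. Counting error alone gives Top3b an SD of 0.057 on the log2 scale, wider than the spread of these nonstressed values. Whether other groups lie apart from them depends on that narrow spread. Stressed sham libraries on the control diet were at 578, 608, 641, 649 and 651, all below the nonstressed ones. ECT libraries on the control diet ran from 552 to 655 (median 613, n = 6), also all below the nonstressed ones (0.946% of all genes had these 2 groups apart, 0.44% lower). On the PLX diet Top3b was at 611, 618, 632, 641 and 673 in sham mice and at 614, 626, 657 and 691 in ECT mice, and both overlapped the nonstressed libraries. No member was apart between PLX sham and nonstressed mice (0 of 8, where 4.82% of all genes were). Among ECT mice the PLX diet differed from the control diet by 0.09 (SE 0.049, 95% interval -0.01 to 0.19), with adjusted p = 0.498.

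Top3a codes for the type IA enzyme that, with BLM and RMI1, separates entwined DNA molecules in the nucleus and also acts in mitochondria (chromosome 11, 60740058 to 60777365, minus strand). It was at 66.4, 91.6, 97.6 and 99.3 in nonstressed libraries and at 91.4, 99.6, 101.0, 105.0 and 115 in stressed sham libraries on the control diet. Apart from library 22, at 66.4, and library 19 of the PLX sham group, at 69.0, all values lay between 84.3 and 119.5. Its stress difference of 0.22 was 0.09 to 0.28 when single libraries were left out.

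Top1mt codes for the type IB enzyme of mitochondria (chromosome 15, 75657035 to 75678800, minus strand). Group means lay between 225 ± 32.1 (n = 4) in nonstressed mice and 244 ± 21.4 (n = 5) in sham mice on the control diet, with single libraries from 188 to 282 and overlap of all groups. Its SD within groups of 0.15 on the log2 scale exceeded that of 61.1% of genes of like level, the highest such share of the 8 genes, and Top3b had the lowest, 13.7%.

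Tdp1 codes for the enzyme that frees ends blocked by TOP1 (chromosome 12, 99884517 to 99955219, plus strand), and Tdp2 for the one that frees ends blocked by type II enzymes (chromosome 13, 24831679 to 24842153, plus strand). Tdp1 was at 314, 332, 344 and 349 in nonstressed libraries and at 294, 312, 319, 325 and 330.1 in stressed sham libraries on the control diet. The highest values, 356 and 382, came from ECT libraries 2 and 1 on the control diet. Group means of Tdp1 lay between 309.6 and 335, and all groups overlapped. The genes most like Tdp1 were Impa1, an inositol monophosphatase (r = 0.736), A230070E04Rik (0.730) and Galnt3 (0.685).

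Tdp2 group means lay between 265 ± 24.8 (n = 6) in ECT mice on the control diet and 289 ± 15.5 (n = 4) in ECT mice on the PLX diet. These groups overlapped, at 241 to 305 and 270.5 to 304. The difference of Tdp2 between them was 0.13 (SE 0.073, 95% interval -0.03 to 0.28), with adjusted p = 0.559.

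ECT was compared with sham treatment within each diet. On the PLX diet, where no library is shared with the contrast that chose the genes, all 8 members could be tested. Differences lay between -0.10 (Fancd2) and 0.04 (Tdp2), and each had adjusted p = 0.999 by limma. limma called 0 of 8 members and 0% of all genes, and 0 members were at an unadjusted p below 0.05. edgeR and DESeq2 called 0 members too. No member had groups apart (0 of 8, where 1.16% of all genes had). The 95% intervals ran from -0.12 to 0.06 for Top1 and from -0.41 to 0.22 for Fancd2. Choroid plexus markers differed between these groups, with sums of 2198 to 67531.5 (median 34159.5) in sham libraries. In ECT libraries they summed to 2217 to 51584 (median 2754). The part of this tissue in the values of the members was not tested.

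On the control diet, Top1 was higher after ECT by 0.17 (SE 0.040, 95% interval 0.088 to 0.25). This is a description, since the 5 sham libraries are those in which Top1 was chosen as low. The interval does not allow for that choice. The ranges met by a small overlap, with ECT libraries from 1721 upward and sham libraries up to 1730.3. The other members lay between -0.15 (Fancd2) and 0.07 (Tdp1). Of the 6 that were tested limma called 0, against 0.00657% of all genes, with 0 at an unadjusted p below 0.05. The lowest adjusted p was 0.869 (Tdp2), and edgeR and DESeq2 called 0 of these 6. All 8 members overlapped, where 0.841% of all genes were apart.

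The difference between the ECT effects of the diets was -0.20 for Top1 (SE 0.060, 95% interval -0.32 to -0.08), given without a test for the same reason. Its interval does not allow for the choice of Top1 either. For the 6 tested members it lay between -0.07 (Top2b) and 0.13 (Tdp2), the lowest adjusted p was 0.852, and limma called 0 of 6 and 0% of all genes, with 0 at an unadjusted p below 0.05 and 0 called by edgeR or DESeq2.

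Between the diets in sham mice limma called 0 of the 6 tested members, with 1 (Top2b) at an unadjusted p below 0.05, where 1.86% of all genes were called. In ECT mice it called 0 of 8, with 0 at an unadjusted p below 0.05, where 2.3% of all genes were called. edgeR and DESeq2 called 0 in both. Groups of ECT mice overlapped for all 8 members, where 3.24% of all genes were apart. In ECT mice the differences lay between -0.09 (Tdp1) and 0.13 (Tdp2), with a lowest adjusted p of 0.498 (Top3b). Top1 differed there by -0.07 (SE 0.043, adjusted p = 0.577) and Fancd2 by 0.05 (SE 0.15, adjusted p = 0.948).

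**Figure D4:**
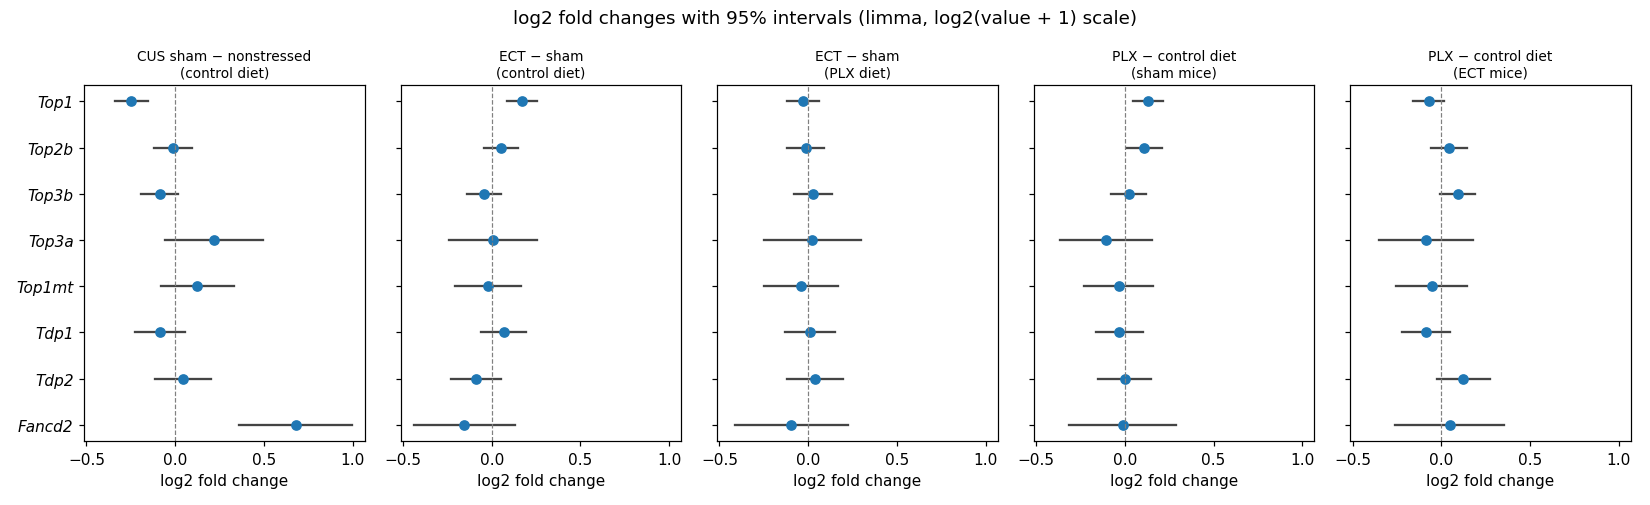
log2 fold changes (horizontal axis) of the 8 genes with 95% intervals in 5 comparisons, from limma on log2(value + 1). In the left panel, which chose the genes, Top1 lies at -0.25 and Fancd2 at 0.68, and the intervals do not allow for that choice. In the panel of ECT on the PLX diet all 8 lie between -0.10 and 0.04.

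Genes that work with these enzymes were followed in 7 lists, with 104 genes tested. limma, edgeR and DESeq2 called 0 of the 104 in each of the 5 comparisons above. At an unadjusted p below 0.05 limma had 4 of them for stress, 10 and 2 for ECT on the control and PLX diets, and 7 and 11 for the PLX diet in sham and ECT mice. These are 3.8%, 9.6%, 1.9%, 6.7% and 10.6% of the list genes, where 6.5%, 6.9%, 2.5%, 9.5% and 11.4% of all genes were past the same limit. The values below are not calls. Genes of a list were measured in the same libraries, so their signs are not independent.

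Top2a, the type II enzyme of dividing cells, was low. Its group means lay between 18.4 ± 8.34 (n = 5) in sham mice on the control diet and 35.7 ± 20.0 (n = 5) in sham mice on the PLX diet, with single libraries from 7.92 to 67.5. Spo11, the related enzyme of meiosis, had at most 3.75 in any library and did not pass the filter.

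In the list of partners of type IA enzymes, which holds Blm, Rmi1 and Tdrd3, 2 of 10 genes were positive with stress, with a median of -0.03 where all genes had -0.002. The values ran from -0.12 for Fxr1, a relative of the fragile X protein, to 0.008 for Wrn, a helicase. Single-strand break repair genes, which act after TDP1, had 8 of 20 positive (median -0.07), from -0.31 for Ung, a uracil glycosylase, to 0.17 for Aptx. Ung was low, at 26.3 ± 4.19 (n = 4) in nonstressed mice and 21.4 ± 4.93 (n = 5) in stressed sham mice on the control diet. Genes that process protein-linked breaks had 11 of 17 positive (median 0.02), from -0.38 for Rbbp8, which codes for the end-resection factor CtIP, to 0.16 for Eme2. Rbbp8 was at 58.0 ± 5.70 (n = 4) in nonstressed mice and 44.7 ± 6.07 (n = 5) in stressed sham mice on the control diet, with adjusted p = 0.759.

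Nonhomologous end joining genes, which rejoin cut helices such as those TDP2 has cleaned, had 0 of 13 positive with stress (median -0.07, where 49.2% of all genes were positive). The range was narrow, from -0.18 for Lig4, the ligase of this pathway, to -0.004 for H2afx. limma had 1 of the 13 at an unadjusted p below 0.05, where 6.5% of all genes were. All 13 differences use the same libraries, so nothing is read from the count of signs. After ECT on the control diet 5 of 13 were positive (median -0.02), with Lig4 at 0.18 (adjusted p = 0.605). Other Fanconi anaemia genes had 12 of 25 positive with stress (median -0.02). Fanci, the partner of Fancd2, differed by 0.18 (adjusted p = 0.897), from 18.9 ± 5.95 (n = 4) to 21.0 ± 3.76 (n = 5), and Ube2t, the ubiquitin-conjugating enzyme for both, by -0.36 (adjusted p = 0.832).

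Among early response genes are known sites of TOP2B cuts in neurons. After ECT on the control diet 16 of 18 were positive (median 0.34), where 49.3% of all genes were. On the PLX diet 8 of 18 were positive (median -0.01), where 50.8% of all genes were. With stress 4 of 18 were positive, and for the PLX diet in sham mice 14 of 18. The last 2 comparisons share the sham libraries on the control diet with the first. Fos, the highest, was at 272 ± 176 (n = 6) after ECT and 112.5 ± 55.7 (n = 5) in sham mice on the control diet, a difference of 1.14 (SE 0.55, adjusted p = 0.715). The spread between libraries of Fos was large beside this difference. For the difference between the ECT effects of the diets Fos was at -1.37, and 0 of the 18 genes were called.

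**Figure D5:**
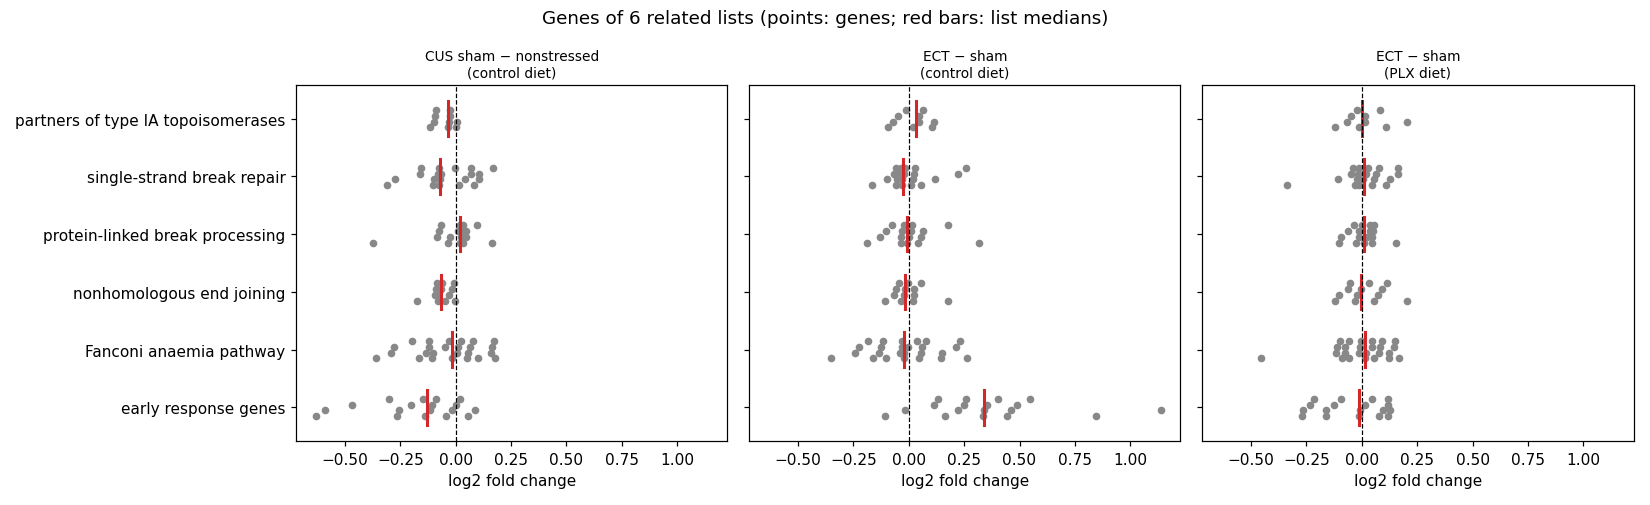
log2 fold changes (horizontal axis) of single genes (points) in 6 related lists, with list medians as red bars, for stress and for ECT on each diet. Early response genes have a median of 0.34 after ECT on the control diet, and 0 of the 13 end joining genes lie above 0 with stress. Genes of a list share their libraries, so their signs are not independent.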

How the data were processed

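Hippocampal poly(A) RNA libraries (24, in 5 groups) were grouped by their titles. The deposited signal values are normalized read counts per the file headers: each library's reads were scaled by a single size factor. Named in the submitters' processing notes are HTSeq 0.6.1p1, TopHat2 2.0.10, DESeq2 1.6.3 and cutadapt, and the builds mm10 and hg19. No source used here gives the annotation or strand setting. Every column's values were whole multiples of a step (100% within 0.001 reads), which gave back the reads (14.97 M to 20.12 M). In libraries 11 and 14 the step was close to 1 (0.9903 and 0.9901), so recovery is less certain there. The floor of 3 reads corresponds to 0.149 to 0.2004 CPM and covers counting error only.

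Since the table is normalized, limma 3.58.1 (trend, robust) was run on log2(value + 1) in place of the planned count test, for 15225 genes with at least 10 in at least 4 libraries, with 5 group means. P-values were adjusted by Benjamini-Hochberg over all genes and called below 0.05. This scale understates changes of low genes. edgeR 4.0.16 and DESeq2 1.42.0 were run on the recovered reads. The code of the fit was also run on simulated counts, with the same dispersion for every gene and no difference in neighbouring tissue. That run is no support for the values of the members.

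Members and lists were chosen with earlier results of these data known. All 8 members are named, with the extremes of each related list and the 3 genes most correlated with Top1, Top2b, Tdp1 and Fancd2; Fos, Lig4, Rbbp8 and Fanci are also given in further comparisons. Coordinates and exon lengths come from GENCODE M21 (GRCm38), matched by symbol for 8 of 8. Top6bl was not analysed here. Other settings were pseudocounts of 0.5 and 8, no filter, only the compared groups, the title letter as a random effect (consensus correlation 0.192), choroid plexus and thalamus means as covariates, and leaving out each library in turn.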

Additional observations from a re-analysis of the deposited data

Results flagged for a closer look

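Top3a in library 12, an ECT library on the PLX diet, was at 91.2 normalized read counts while the other 3 libraries of that group lay between 97.9 and 99.0. The gap was 0.859 of the group's range, above the critical value of 0.829 for 4 libraries. Of 40 groups of values examined this was the only such one, where chance flags about 1 in 20. These values rest on 88 to 118 reads each, and counting error alone gives Top3a an SD of 0.145 on the log2 scale.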

How the results depend on the processing

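Of 81 counts of called members under other settings 78 were as reported. The others are in comparisons that share libraries with the choice of Top1 and Fancd2, so they are no test of these genes: DESeq2 gave 1 where limma gave 0 for stress and for ECT on the control diet, and with only the compared groups the count was 0, where it is 1, in sham PLX against nonstressed mice. Leaving out single libraries gave 0 to 1 for stress, for sham PLX and for ECT PLX mice against nonstressed mice, with the same limit. Of 648 fold changes under other settings 9 changed sign, 2 of them of Fancd2 where it was not tested. The other 7 were near 0: with tissue covariates Top2b for ECT on the PLX diet (0.001), and Top3b (-0.022) and Tdp2 (0.04) for the PLX diet in sham mice; with the title letter Tdp2 in the last comparison (0.002); and Top3a for the difference between the ECT effects with edgeR (-0.007 with TMM, -0.006 with RLE) and DESeq2 (-0.006). The cause was not tested.

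Leaving out single libraries changed the sign of 37 of 1728 fold changes, 11 of them where the gene was not tested. For the other 26 the ranges were, for ECT on the control diet, -0.039 to 0.061 (Top3a) and -0.069 to 0.025 (Top1mt); for ECT on the PLX diet, -0.091 to 0.089 (Top3a), -0.005 to 0.052 (Top3b) and -0.031 to 0.045 (Tdp1); for the PLX diet in sham mice, -0.169 to 0.012 (Top3a), -0.006 to 0.037 (Top3b), -0.074 to 0.039 (Top1mt) and -0.04 to 0.05 (Tdp2); and for the difference between the ECT effects, -0.096 to 0.084 (Top3a) and -0.093 to 0.027 (Top1mt). Over all genes edgeR with TMM called 0 for stress, 1 and 0 for ECT on the control and PLX diets, and 282 and 343 for the PLX diet in sham and ECT mice. DESeq2 called 1, 11, 0, 320 and 404. With only the compared groups limma called 229 in the last comparison, where it called 350 with all groups in the fit. No paired analysis was possible because the numbers in the titles are not shared between groups. Depth limits Fancd2 and Top3a most, at 29 to 69 and 68 to 122 reads per library.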
